A study of Mus musculus with 54 samples.

Results

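The metallothionein genes Mt1 and Mt2 and 6 genes known as targets of the transcription factor NRF2 (Hmox1, Nqo1, Gclc, Gclm, Txnrd1 and Srxn1) were followed through every protocol of a study of adult mouse kidney. They were chosen by name, and make up 8 of the 33126 genes listed in the count tables. Metallothioneins are small cysteine-rich proteins that bind zinc and copper, and their genes are induced by metals through the zinc-sensing factor MTF1 and by glucocorticoids. NRF2, encoded by Nfe2l2, is kept low by KEAP1, an adaptor of a ubiquitin ligase, and is released by oxidants and electrophiles. It then binds antioxidant response elements together with a small MAF protein and drives genes of glutathione and thioredoxin metabolism. The proximal tubule, the longest segment of the kidney cortex, is known for a high turnover of glutathione.

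All animals were untreated. In the first series, kidneys of male AFAPIL.1DEL C57BL/6J littermates aged 19 weeks were dissociated on ice with a Bacillus licheniformis protease (cold) or at 37 °C with a commercial enzyme kit (warm), and each suspension was profiled fresh, after cryopreservation for 6 weeks in freezing medium with DMSO, or after methanol fixation. In the other series, male Balb/c littermates aged 18 weeks gave cold-dissociated fresh cells, sorted nuclei (3x500g, washed 3 times at 500g) and intact-tissue bulk RNA. Female wild-type Balb/c mice aged 15 weeks, formerly used as breeders, gave cold-dissociated fresh cells and cells cryopreserved for 2 weeks, nuclei by 3 protocols (sorted 3x500g, sorted 1x2000g, washed 1 time at 2000g, and a sucrose cushion without sorting), and bulk RNA of intact tissue and of cold suspensions. Nuclei were prepared from flash-frozen kidneys. The series were run as separate batches, so strain, sex, age, 10x chemistry (version 2 for the male mice, version 3 for the female mice), time in storage, spin speed on thawing and batch cannot be told apart between them, and every test stayed within 1 series.

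The 54 libraries (39 10x and 15 bulk) fell into 18 groups of 3, with 983522 to 35170947 unique molecular identifiers (UMIs, counted molecules) per 10x library and 2326998 to 31093949 reads counted per bulk library. Levels are given as CPM, the count of a gene scaled to a common total of counts outside the mitochondrial genome. Tests compared whole-library sums of 3 against 3 libraries with the quasi-likelihood test of edgeR, with Benjamini-Hochberg adjustment over all genes tested, and a gene was called at an adjusted p under 0.05. The kidney label held in every fresh group: the summed level of 16 proximal tubule markers was 15685 to 18413 CPM in cold fresh and 19871 to 22827 CPM in warm fresh C57BL/6J libraries. After cryopreservation the same sum was 178 to 302 CPM (cold) and 236 to 390 CPM (warm), with up to 11 and 9 of the 16 markers listed at 0, and in the female mice it went from 16773 to 19468 CPM in fresh cells to 2212 to 3736 CPM. Cells of clusters with proximal tubule markers, called proximal-tubule-like here, made up 58.7 to 73.2% of barcodes in the fresh C57BL/6J libraries, 0.123 to 0.705% after cryopreservation, and 7.41 to 10.4% after cryopreservation in the female mice. Whole-library cryopreservation results of the 8 genes are therefore given with and without these cells. Of 130 calls of a member within a cell class, 77 held in every fit that left out 1 library, among them 18 of 24 in male and 42 of 51 in female nuclei against cells and 0 of 3 in warm against cold fresh cells. Fewer cells of a type and less RNA per cell cannot be told apart in bulk libraries. The comparisons within the C57BL/6J series share their fresh libraries, and those within the female series share their fresh cells or their 3x500g nuclei.

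The promoter sequences of the members are shown for the elements by which metals and NRF2 are known to act. Windows from 250 bases before to 30 bases after the RefSeq start (GRCm38.p6) were searched on both strands for the core of the metal response element that MTF1 binds (TGCACNC or TGCGCNC) and for the core of the antioxidant response element (TGACNNNGC or TGAGNNNGC). Of 32851 promoter windows of this length, 24.1% held at least 1 metal core, 6.37% at least 2 and 1.73% at least 3, while 26% held at least 1 antioxidant core and 4.01% at least 2. Mt2 (window chr8:94172368-94172647, plus strand) held 4 metal cores and 1 antioxidant core, and its neighbor Mt1 (chr8:94178839-94179118, plus strand) held 3 metal cores and 0 antioxidant cores. Gclm (chr3:122245307-122245586, plus strand) held 2 metal cores and 1 antioxidant core that overlaps the first of them, and Srxn1 (chr2:152105274-152105553, plus strand) held 1 metal core and 2 antioxidant cores. Of 3 windows for Txnrd1, 1 held an antioxidant core, and the Nqo1 window held neither. Windows for Hmox1 and Gclc were not analysed here. The 4 windows that hold metal cores are printed 5′ to 3′, with every match in capitals. A match is a string of letters and not a shown binding site. Sequence outside the windows was not searched, so a window without a match does not show that a gene lacks the element.
Mt1: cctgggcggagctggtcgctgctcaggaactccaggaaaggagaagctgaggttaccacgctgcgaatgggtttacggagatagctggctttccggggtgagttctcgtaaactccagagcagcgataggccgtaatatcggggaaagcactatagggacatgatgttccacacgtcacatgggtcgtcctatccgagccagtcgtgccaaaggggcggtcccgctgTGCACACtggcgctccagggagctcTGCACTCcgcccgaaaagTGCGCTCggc
Mt2: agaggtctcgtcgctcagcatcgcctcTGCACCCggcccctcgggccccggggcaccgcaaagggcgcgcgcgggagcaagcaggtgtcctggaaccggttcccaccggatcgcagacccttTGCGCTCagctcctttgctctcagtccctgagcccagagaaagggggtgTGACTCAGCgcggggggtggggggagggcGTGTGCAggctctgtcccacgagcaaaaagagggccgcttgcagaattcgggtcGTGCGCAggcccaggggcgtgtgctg
Gclm: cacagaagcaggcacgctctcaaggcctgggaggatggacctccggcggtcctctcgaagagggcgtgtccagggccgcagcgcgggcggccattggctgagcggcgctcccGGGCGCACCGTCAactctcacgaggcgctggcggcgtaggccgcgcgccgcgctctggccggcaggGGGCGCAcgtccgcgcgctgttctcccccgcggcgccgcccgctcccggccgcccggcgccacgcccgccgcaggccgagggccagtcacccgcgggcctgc
Srxn1: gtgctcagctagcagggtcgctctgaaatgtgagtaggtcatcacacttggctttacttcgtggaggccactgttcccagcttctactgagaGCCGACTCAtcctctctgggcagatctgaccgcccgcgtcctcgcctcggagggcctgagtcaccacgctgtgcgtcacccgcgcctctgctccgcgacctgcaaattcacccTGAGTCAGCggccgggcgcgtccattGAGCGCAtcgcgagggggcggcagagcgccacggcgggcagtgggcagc

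The genes differ in how much of their span is intron, which bears on counts from nuclei, where intronic reads were counted too. Over the span of 1 principal transcript a gene, introns made up 55.9% in Mt1, 43.5% in Mt2 and 52.0% in Srxn1. They made up 77.5% in Hmox1, 77.8% in Gclm, 89.6% in Nqo1 and 91.4% in both Gclc and Txnrd1. Sequence outside the exons of every annotated transcript made up 0% of the span of Mt1 (chr8:94179082-94180327), 35% of Mt2 (chr8:94172664-94173568), 51.9% of Srxn1 (chr2:152105516-152111376), 74.9% of Hmox1 (chr8:75093621-75100589) and 75.0% of Gclm (chr3:122245557-122270732). It made up 88.9% of Txnrd1 (chr10:82833951-82897712), 89.6% of Nqo1 (chr8:107388225-107403206, minus strand) and 90.6% of Gclc (chr9:77754535-77794485). Exons of Mt2 overlap those of the antisense gene Gm45774, and exons of Gclm overlap those of Gm17494 on the other strand and of the pseudogene Gm6061 on the same strand, so reads there could be assigned differently.

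In bulk libraries, where counts can be divided by length, the order of the genes depended on the length used. Per kilobase of the exons of all annotated transcripts merged, the order in C57BL/6J cold suspensions was Gclc (65.5 ± 9.57 CPM per kb, SD, n = 3), Gclm (50.4 ± 3.06), Nqo1 (32.5), Txnrd1 (28.5), Hmox1 (28.4 ± 12.9), Srxn1 (21.5), Mt2 (18.4) and Mt1 (18.1). Hmox1 had the widest spread relative to its mean, and its interval took in Nqo1, Txnrd1, Srxn1 and the metallothioneins. Per kilobase of the principal transcript alone, the order was Gclc (72.1 ± 10.5 CPM per kb), Txnrd1 (60.8 ± 6.47), Gclm (56.8 ± 3.44), Mt1 (41.2 ± 5.15), Nqo1 (32.5), Hmox1 (31.7), Srxn1 (21.6) and Mt2 (21.2), so that Txnrd1 rose to the second and Mt1 from the last to the fourth place. Female cold suspensions, prepared with poly(A) selection in place of ribosomal RNA depletion, had Mt1 (91.7 ± 13.5 CPM per kb) and Mt2 (75.7 ± 20.1) above Gclc (56.2) and Gclm (41.5) on the first scale, where the intervals of Mt1 and Mt2 overlapped, and Mt1 at 208 ± 30.6 and Mt2 at 87.1 ± 23.1 CPM per kb of principal transcript. Intact female tissue had Gclc (78.4 ± 9.51 CPM per kb), Mt1 (75.4 ± 13.9), Mt2 (59.8 ± 18.8) and Gclm (59.4 ± 0.925) on the first scale, with Mt1 overlapping Gclc and Mt2 overlapping both and Gclm. Between these series the library method, strain, sex and age differ together.

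**Figure D1:**
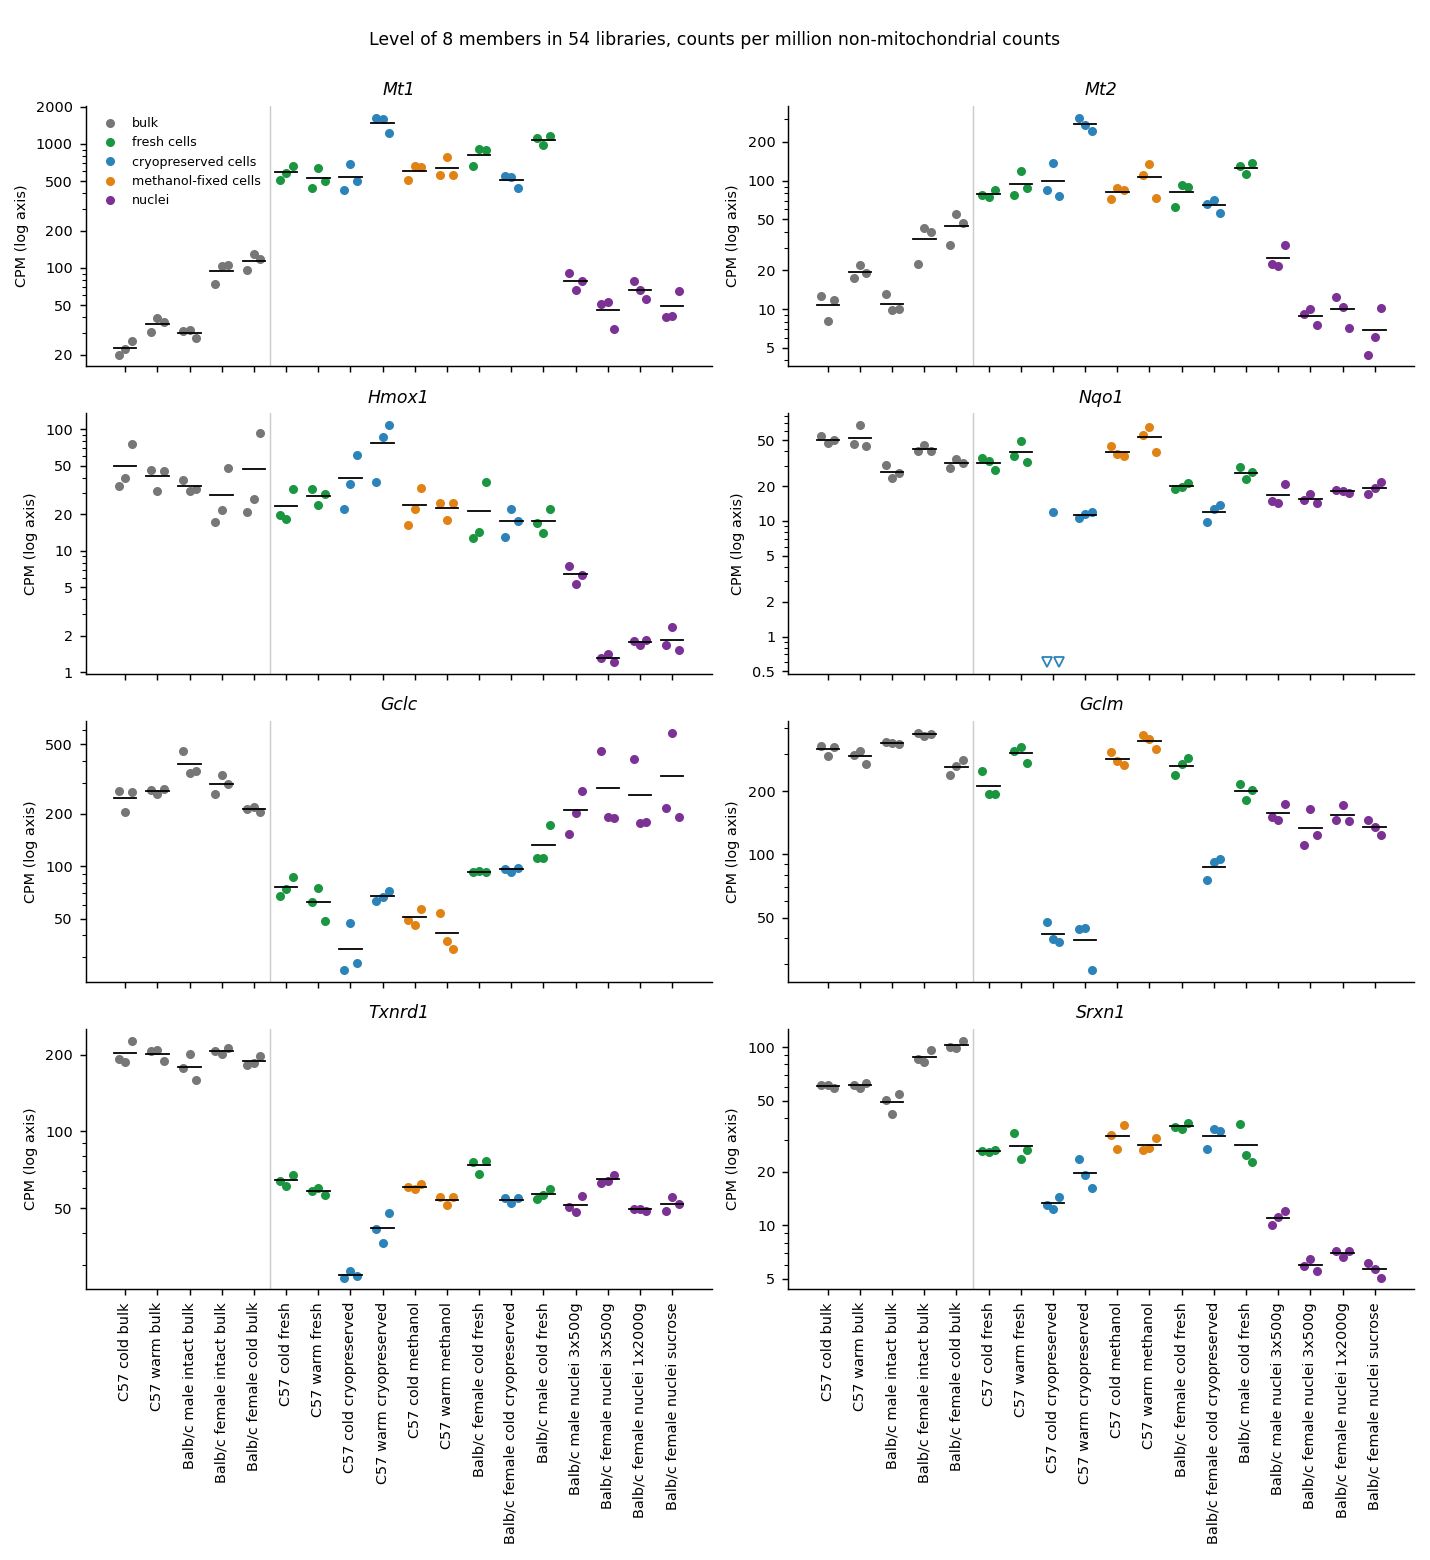
Level of the 8 genes in each of the 54 libraries, as CPM over counts outside the mitochondrial genome on a log axis, by group. Each dot is 1 library, the black bar is the mean of the 3 libraries of a group, and open triangles mark Nqo1 listed at 0. Mt1 sits between 1234 and 1633 CPM in cells cryopreserved after warm dissociation, and between 32.3 and 91.5 CPM in all nuclei.

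Across the 12 comparisons, cryopreservation and the step from cells to nuclei moved most of the genes, and in those comparisons most of all genes were called too. Warm against cold dissociation called 2 of the 8 in bulk (8.68% of all genes tested) and 1 of 8 in fresh 10x cells (14.9%). Intact tissue against cold suspension called 4 of 8 (20%). Cryopreservation called 5 of 8 after cold dissociation (50.7%), 7 of 8 after warm dissociation (59.8%) and 7 of 8 in the female mice (58.0%). Methanol fixation called 2 of 8 after cold dissociation (27.9%) and 0 of 8 after warm dissociation (17.3%), where 2 of 8 had an unadjusted p under 0.05 and DESeq2 called 0. Nuclei against cells called 7 of 8 in male (81.3%) and 8 of 8 in female mice (84.8%). Among nuclei, 1x2000g against 3x500g called 1 of 8 (34.9%) and sucrose against 3x500g 2 of 8 (45.3%). Without proximal-tubule-like barcodes, 3 of 8 were called in cold methanol-fixed cells (30.2% of genes), 1 in warm methanol-fixed cells (Gclc, 19%), 3 in 1x2000g nuclei (34.6%), with Gclm (0.65) and Nqo1 (0.37) higher and Txnrd1 lower, and 2 in sucrose nuclei (46.1%), with Gclm (0.40) and Nqo1 (0.34) higher. In nuclei against cells this step called 6 of 8 in male (76.7%) and 8 of 8 in female mice (83.3%). With a replicate block, which pairs aliquots of the same suspension (warm and cold suspensions share only a number), the shares of all genes called were 13.1% (warm against cold fresh cells), 44.0% and 49.8% (cryopreservation, cold and warm) and 35.7% and 17.8% (methanol fixation, cold and warm), and 4 of 8 members were called in each methanol comparison. Against a scaling by total counts, the normalization shifted the median gene by 0.34 to 0.44 (log2) in the 3 cryopreservation comparisons, by 0.15 in male and by 0.40 in female nuclei against cells, and by less than 0.05 elsewhere. Fold changes are therefore relative to the other genes of the same comparison.

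**Figure D2:**
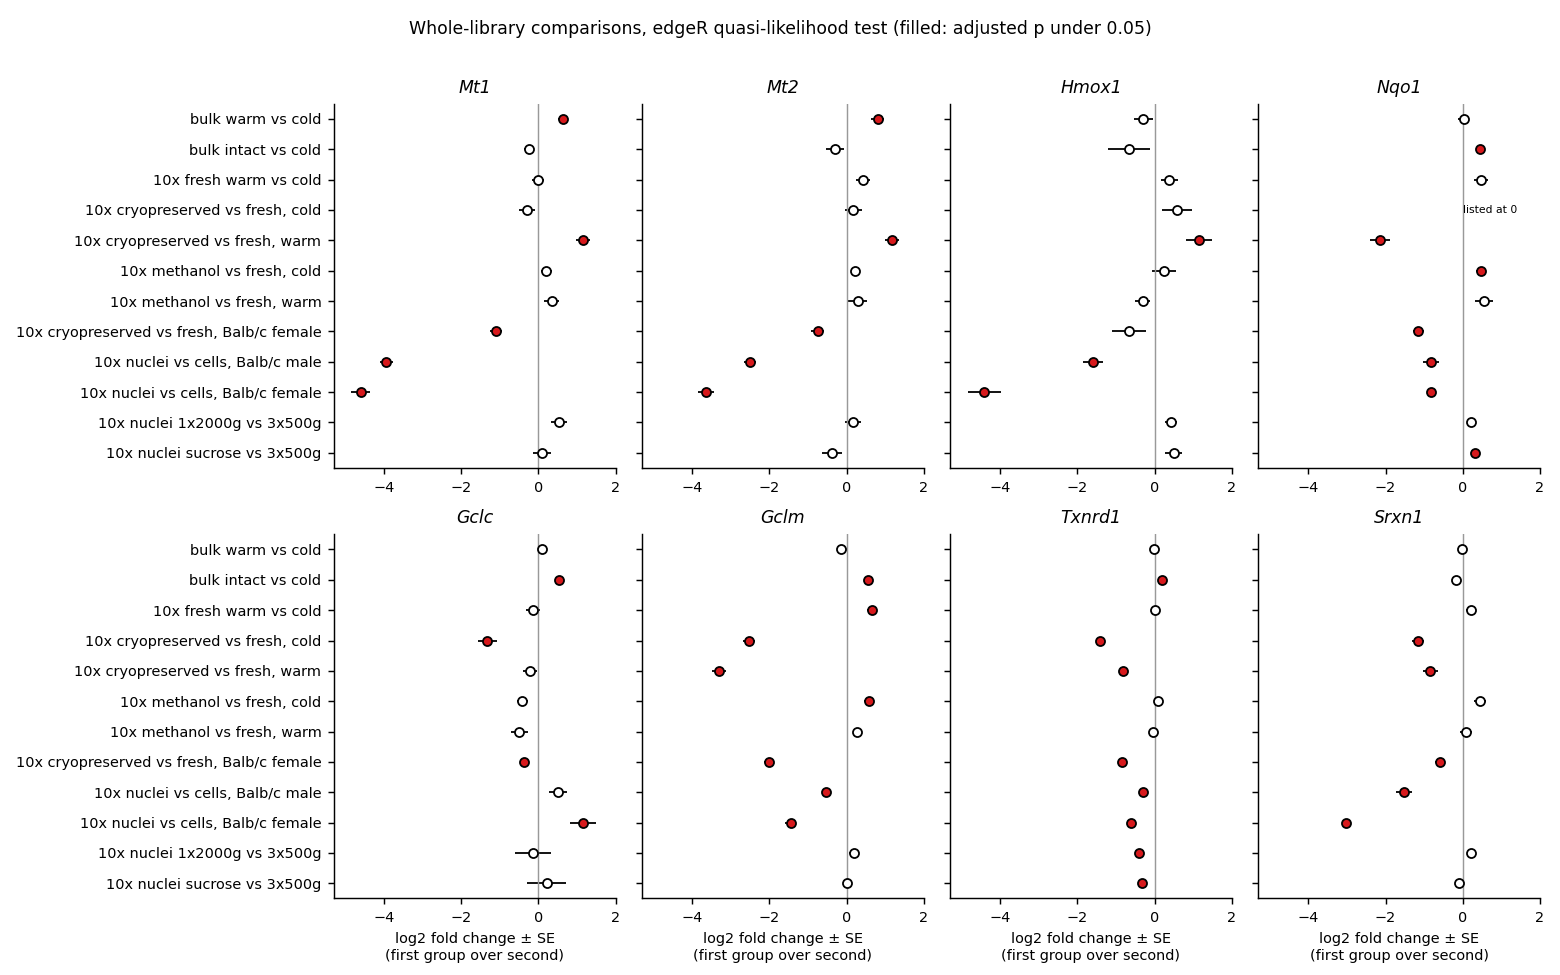
Log2 fold change of each gene (x axis) in the 12 comparisons (y axis), with bars of 1 standard error. Filled red points have an adjusted p under 0.05 in edgeR over all genes tested. Mt1 is higher in bulk warm suspensions (0.63) and in cells cryopreserved after warm dissociation (1.14), and lower in nuclei (-3.94 and -4.61).

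The metallothioneins were the members that rose with warm dissociation in bulk RNA. Mt1, like Mt2 a broadly expressed metallothionein, was at 30.6, 39.1 and 36.7 CPM in the 3 warm suspensions and at 20, 22.2 and 25.6 CPM in the 3 cold ones. Mt2 was at 17.4, 21.9 and 19.2 CPM against 12.6, 8.07 and 11.9 CPM. For both genes every warm library lay above every cold one. Mt1 was 1.55-fold higher (log2 fold change 0.63 ± 0.13, SE, adjusted p = 0.008) and Mt2 1.75-fold higher (0.80 ± 0.17, adjusted p = 0.0096). The summed level of loop of Henle markers also moved between these groups, from 8488 to 8664 CPM in cold to 10101 to 11922 CPM in warm suspensions, and its part in the result was not tested. The other 6 genes had adjusted p of 0.33 or more.

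In the fresh 10x libraries of the same suspensions, Mt1 and Mt2 summed over all cells were not called. Mt1 was at 442, 643 and 505 CPM after warm and 513, 589 and 669 CPM after cold dissociation, ranges that overlap (log2 fold change -0.01, adjusted p = 0.98). Mt2 was at 77.1, 119 and 87.6 CPM against 76.7, 74.7 and 84.7 CPM (0.42 ± 0.17, adjusted p = 0.13). Without proximal-tubule-like cells, where 6.89% of genes were called, Mt2 rose by 0.85 ± 0.17 (adjusted p = 0.012) and Mt1 had 0.50 ± 0.14 (adjusted p = 0.055). Within cell classes, both rose in cells with markers of collecting duct principal cells, Mt1 by 0.99 ± 0.26 (adjusted p = 0.039) and Mt2 by 1.68 ± 0.37 (adjusted p = 0.012). Both calls were lost at a clustering resolution of 1 (Mt1 1.14, adjusted p = 0.1, and Mt2 0.62, adjusted p = 0.73), and in 5 of 6 (Mt1) and 2 of 6 fits (Mt2) without 1 library, with Mt2 at 0.92 without warm replicate 2. Whether the bulk and the 10x difference differ from each other was not tested.

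Metallothionein transcripts were concentrated in the distal nephron. In cold fresh C57BL/6J cells, Mt1 was at 5112 ± 348 CPM (SD, n = 3) in cells with ascending loop of Henle markers, 4323 ± 92.4 CPM in distal-convoluted-tubule-like and 2589 ± 699 CPM in connecting-tubule-like cells. Podocyte-like (1138 ± 369 CPM) and intercalated-like cells (1055 ± 196 CPM) followed, and their intervals overlapped. Proximal-tubule-like cells, the most numerous, had 173 ± 47.8 CPM. Mt2 had the same leading classes, with 828 ± 202, 650 ± 70.4 and 424 ± 83.8 CPM, against 11.5 ± 1.74 CPM in proximal-tubule-like cells. In female fresh cells the 2 leading classes were distal-convoluted-tubule-like (3154 ± 433 CPM) and ascending-loop-like cells (2960 ± 739 CPM), which did not differ beyond their spread, and proximal-tubule-like cells had 399 ± 142 CPM.

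Cells cryopreserved after warm dissociation had the highest metallothionein levels of the study. Mt1 was at 1633, 1599 and 1234 CPM against 442, 643 and 505 CPM in warm fresh cells, and Mt2 at 310, 272 and 242 CPM against 77.1, 119 and 87.6 CPM. No library of one group reached the other. Relative to the other genes Mt1 was 2.21-fold (1.14 ± 0.18, adjusted p = 0.0012) and Mt2 2.26-fold higher (1.18 ± 0.19, adjusted p = 0.0014). With the proximal-tubule-like cells left out of both groups (17.0% of genes called) neither was called. The log2 fold change was then -0.08 ± 0.16 for Mt1 (adjusted p = 0.79) and -0.12 ± 0.18 for Mt2 (adjusted p = 0.71), each within 1 SE of 0. Loop of Henle markers summed to 2887 to 4530 CPM in fresh and 3924 to 5400 CPM in cryopreserved libraries.

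Within cell classes after warm dissociation, some metallothionein differences remained (8.88% of gene and class tests called). In endothelial-like cells Mt1 went from 198 ± 156 CPM fresh to 777 ± 253 CPM cryopreserved (log2 fold change 1.96 ± 0.40, adjusted p = 0.0085), and Mt2 rose by 1.82 (adjusted p = 0.036). Mt1 rose by 1.14 in macrophage-like cells (adjusted p = 0.004), where 20.9% of genes tested were called. Mt1 also rose by 0.61 in ascending-loop-like cells (adjusted p = 0.013), and Mt2 rose by 0.79 in distal-convoluted-tubule-like cells (adjusted p = 0.032). The Mt1 calls in endothelial-like and macrophage-like cells held in all 6 fits without 1 library. Those of Mt2 were lost in 4 of 6 fits in each class, and the endothelial one also at a clustering resolution of 1 (1.27, adjusted p = 0.092).

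After cold dissociation the same storage gave no call for either metallothionein. Mt1 was at 425, 690 and 503 CPM in cryopreserved and 513, 589 and 669 CPM in fresh cells (-0.30 ± 0.21, adjusted p = 0.26), and Mt2 at 85.3, 138 and 75.5 CPM against 76.7, 74.7 and 84.7 CPM (0.18, adjusted p = 0.53). Without cryopreserved replicate 2, the highest, Mt1 was lower by -0.55 on the log2 scale (adjusted p = 0.045). Without proximal-tubule-like cells (20.7% of genes called) Mt1 fell by 1.05 (adjusted p = 0.0086), and Mt2 had -0.72 (adjusted p = 0.059). The loop of Henle marker sum was 2283 to 2601 CPM in fresh and 489 to 965 CPM in cryopreserved libraries. Within classes (7.01% of tests called) Mt2 rose in principal-cell-like cells (1.45, adjusted p = 0.014) and Mt1 in monocyte-like cells (1.92, adjusted p = 0.02, 2 fresh libraries with enough cells). The Mt2 call was lost at a clustering resolution of 1 (0.99, adjusted p = 0.34) and without cryopreserved or fresh replicate 2, and the Mt1 call without the same libraries (0.70 without fresh replicate 2).

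In female mice both metallothioneins were lower after cryopreservation in whole-library sums. Mt1 was at 555, 539 and 440 CPM against 666, 903 and 895 CPM in fresh cells, without overlap (-1.09 ± 0.15, adjusted p = 0.00041). Mt2 was at 66.4, 71.0 and 55.7 CPM against 62.6, 92.9 and 88.7 CPM, with overlapping levels (-0.75 ± 0.17, adjusted p = 0.0056, a difference relative to the other genes). Without proximal-tubule-like cells (30.0% of genes called) the differences were larger, -1.48 for Mt1 and -1.26 for Mt2. Mt1 was lower in 4 of 11 classes tested (7.53% of all tests called), most in thin-limb-like cells, from 319 ± 61.6 to 85.6 ± 34.8 CPM (-1.97 ± 0.29, adjusted p = 0.00054). Intercalated-like (-0.86), macrophage-like (-0.95) and proximal-tubule-like cells (-0.75) were the others. In proximal-tubule-like cells 28.7% of genes tested were called. The call in proximal-tubule-like cells was lost at a clustering resolution of 1 (-0.03, adjusted p = 0.97), and it and the macrophage call were each lost in 4 of 6 fits without 1 library. In the classes with the most Mt1 it was not called. Ascending-loop-like cells had 2960 ± 739 CPM fresh and 2820 ± 568 CPM cryopreserved, and distal-convoluted-tubule-like cells 3154 ± 433 and 3267 ± 1222 CPM. Mt2 was called in 0 of 6 classes. The part of cell composition in the whole-library fall was not tested.

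**Figure D3:**
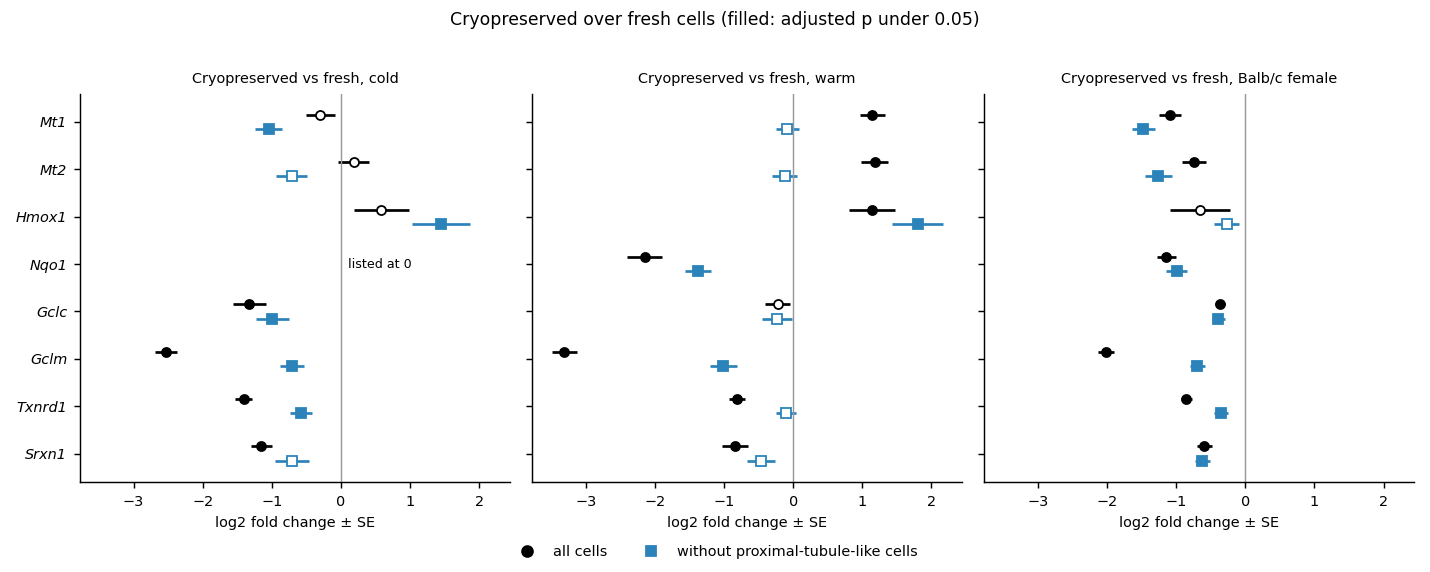
Log2 fold change of each gene between cryopreserved and fresh cells (x axis, bars of 1 standard error) after cold and warm dissociation in C57BL/6J mice and after cold dissociation in female Balb/c mice. Black points are sums over all cells and blue squares sums without proximal-tubule-like cells. After warm dissociation Mt1 moves from 1.14 to -0.08, while Hmox1 stays above 1 (1.14 and 1.80).

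Nuclei held little metallothionein RNA. Mt1 was at 91.5, 66.8 and 78.4 CPM in male nuclei against 1110, 978 and 1162 CPM in male cells, 15.4-fold lower relative to the other genes (-3.94 ± 0.16, adjusted p = 5.6e-07). Female 3x500g nuclei had 51.5, 53.4 and 32.3 CPM against 666, 903 and 895 CPM, 24.5-fold lower (-4.61 ± 0.24, adjusted p = 2.2e-07). Mt2 was 5.62-fold lower in male (-2.49 ± 0.15) and 12.5-fold lower in female nuclei (-3.64 ± 0.20). The fall was seen in every class tested: Mt1 was called lower in 6 of 6 male and 9 of 9 female classes and Mt2 in 5 of 5 of each, where 72.7% and 80.1% of all gene and class tests were called. The largest of these differences was in principal-cell-like cells of female mice, with -6.17 for Mt1 and -5.90 for Mt2. In female 3x500g nuclei the ascending-loop-like class led with 143 ± 32.4 CPM of Mt1, and proximal-tubule-like nuclei had 17.3 ± 6.65 CPM. Whole kidneys had 31.0, 31.8 and 27.4 CPM of Mt1 in male and 74.0, 103 and 105 CPM in female bulk RNA, measured by other library methods.

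The 1x2000g nuclei had more Mt1 than 3x500g nuclei in some classes. Over all nuclei Mt1 was at 78.1, 66.6 and 56.1 CPM against 51.5, 53.4 and 32.3 CPM, without overlap but not called (0.54, adjusted p = 0.075), and DESeq2 called it (0.52, adjusted p = 0.035). Within classes (15.6% of tests called) Mt1 was higher in 5 of 9, among them endothelial-like (1.49 ± 0.28, adjusted p = 0.0032) and thin-limb-like nuclei (1.54 ± 0.44, adjusted p = 0.029, lost in 3 of 5 fits without 1 library). The call in ascending-loop-like nuclei (0.64, adjusted p = 0.041) was lost with RLE size factors (0.61, adjusted p = 0.051) and in 4 of 6 fits without 1 library (0.35 to 0.82). The call in proximal-tubule-like nuclei was lost with doublets removed (0.76, adjusted p = 0.052) and in 5 of 6 fits without 1 library (0.59 to 1.09). In sucrose nuclei Mt1 was at 40.2, 41.1 and 65.7 CPM, overlapping the 3x500g nuclei, and was called higher in intercalated-like nuclei (0.94, adjusted p = 0.0023, 20.7% of tests called). Over all nuclei Mt2 was not called between protocols, at 7.17 to 12.5 CPM in 1x2000g (0.16, adjusted p = 0.58), 4.43 to 10.2 CPM in sucrose (-0.38, adjusted p = 0.29) and 7.49 to 9.99 CPM in 3x500g nuclei.

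Methanol fixation gave no call for the metallothioneins over all cells in the fit without the replicate block. Mt1 was at 511, 658 and 649 CPM after cold (0.21, adjusted p = 0.35) and 566, 782 and 565 CPM after warm dissociation (0.34, adjusted p = 0.29), where 782 CPM lay above all 3 warm fresh libraries and the groups overlapped. Mt2 was at 72.5, 88.0 and 85.0 CPM (0.23, adjusted p = 0.21) and 111, 135 and 73.9 CPM (0.29, adjusted p = 0.49). Within classes of cold-dissociated cells (20.6% of tests called) Mt1 was called higher in 4 of 12 classes and lower in 0. It went from 80.4 ± 42.1 to 237 ± 84.2 CPM in endothelial-like (1.51, adjusted p = 0.0022), from 71.0 ± 22.2 to 263 ± 37.2 CPM in mesangial-like (1.62, adjusted p = 0.016), from 81.5 ± 63.3 to 329 ± 123 CPM in T-cell-like (1.80, adjusted p = 0.019) and from 173 ± 47.8 to 256 ± 72.6 CPM in proximal-tubule-like cells (0.65, adjusted p = 0.046). The endothelial call held in all 6 fits without 1 library, and the others were lost in 4 of 6 or, in T-cell-like cells, 3 of 6. In the classes with the most Mt1 it was not called. Ascending-loop-like cells had 5112 ± 348 CPM fresh and 4527 ± 306 CPM fixed, and distal-convoluted-tubule-like cells 4323 ± 92.4 and 3896 ± 292 CPM. In proximal-tubule-like cells Mt1 also rose after warm dissociation, from 123 ± 26.3 to 268 ± 78.8 CPM (1.17, adjusted p = 0.006, 10.3% of tests called). Mt2 was called higher there too, after cold (0.91, adjusted p = 0.02) and warm dissociation (0.95, adjusted p = 0.032), each lost in 3 of 6 fits without 1 library. With the replicate block that pairs aliquots of the same suspension, whole-library Mt1 was called higher after warm dissociation (0.34, adjusted p = 0.0082). The summed level of erythrocyte markers moved with fixation, from 5703 to 17643 CPM in cold fresh to 14365 to 33835 CPM in cold methanol-fixed and from 2414 to 4651 CPM in warm fresh to 5169 to 9040 CPM in warm methanol-fixed libraries, and its part in these results was not tested. The authors found tubule and hemoglobin transcripts raised in most cell types after fixation, and proposed RNA leaked from damaged cells (ambient RNA) as the source. The part of ambient RNA in the class results was not tested.

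In suspensions of female mice against intact tissue the metallothioneins were not called. Mt1 had 74.0, 103 and 105 CPM in intact tissue and 95.8, 129 and 118 CPM in cold suspensions (-0.24, adjusted p = 0.25), and Mt2 had 22.6, 43.0 and 40.0 CPM against 31.7, 55.0 and 46.8 CPM (-0.30, adjusted p = 0.43). For both genes the ranges of the groups overlapped.

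Hmox1 encodes heme oxygenase 1, which breaks down heme and is repressed by BACH1 as well as induced by NRF2. Its transcripts were found in macrophage-like cells at 42.9 ± 19.7 CPM, monocyte-like cells at 40.7 CPM (2 libraries) and proximal-tubule-like cells at 28.3 ± 9.61 CPM in cold fresh C57BL/6J libraries, levels within their spread of each other. Summed over all fresh cells it was at 32.2, 23.6 and 29.1 CPM after warm and 19.6, 18.4 and 32.2 CPM after cold dissociation (0.38 ± 0.22, adjusted p = 0.27). Cold replicate 3, the highest cold library, decided this: without it the log2 fold change was 0.71 (adjusted p = 0.044). Within macrophage-like cells Hmox1 was 123 ± 26.4 CPM after warm dissociation against 42.9 ± 19.7 CPM after cold (1.45 ± 0.37, adjusted p = 0.048, 3.75% of tests called), a call lost in 5 of 6 fits without 1 library. In bulk RNA of these suspensions Hmox1 was at 31.1 to 46.4 CPM in warm and 34.0 to 75.7 CPM in cold libraries (-0.29, adjusted p = 0.57).

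Cryopreservation raised Hmox1 in macrophage-like cells of both C57BL/6J suspensions. After warm dissociation it was at 153, 349 and 647 CPM in the 3 cryopreserved libraries (1.86 ± 0.41 against fresh, adjusted p = 0.0047), and after cold dissociation at 97.2 ± 45.2 CPM (1.23 ± 0.40, adjusted p = 0.034). Of all genes tested in this class, 20.9% were called after warm and 15.9% after cold dissociation. The warm call held in all 6 fits without 1 library, and the cold call was lost in 3 of 6. In female mice Hmox1 in macrophage-like cells was at 49.2 ± 30.2 CPM cryopreserved and 61.3 ± 25.3 CPM fresh (-0.35, adjusted p = 0.76), and 0 of 3 classes were called. Summed over all cells after cold dissociation, Hmox1 was at 22.1, 35.5 and 61.7 CPM and not called (0.58 ± 0.39, adjusted p = 0.25). Summed over all cells after warm dissociation, Hmox1 was at 36.6, 86.3 and 108 CPM against 32.2, 23.6 and 29.1 CPM (1.14 ± 0.33, adjusted p = 0.02). This call was lost with the replicate block (1.07, adjusted p = 0.058) and without cryopreserved replicate 2 (1.03, adjusted p = 0.061) or 3 (0.82, adjusted p = 0.087), or fresh replicate 2 (1.02, adjusted p = 0.072) or 3 (1.16, adjusted p = 0.056). It was kept without proximal-tubule-like cells (1.80 ± 0.36, adjusted p = 0.013), and the corresponding value after cold dissociation was 1.44 ± 0.42 (adjusted p = 0.045). Macrophage markers summed to 550 to 634 CPM in warm fresh and 1774 to 2781 CPM in warm cryopreserved libraries, and to 837 to 1053 and 2797 to 4044 CPM after cold dissociation. In female mice Hmox1 was at 13.1, 22.2 and 17.5 CPM after storage and 12.6, 14.2 and 37.1 CPM before it (-0.66 ± 0.43, adjusted p = 0.22), and had -0.27 (adjusted p = 0.3) without proximal-tubule-like cells. Methanol-fixed cells had 16.2, 22.2 and 33.0 CPM after cold and 24.6, 17.8 and 24.6 CPM after warm dissociation, overlapping their fresh cells, and were not called.

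Hmox1 had uneven replicates in bulk RNA. Replicate 3 was the highest library in cold C57BL/6J suspensions (34.0, 39.8 and 75.7 CPM in bulk) and in female cold suspensions (21.0, 26.7 and 93.6 CPM in bulk), and female intact tissue had 17.2, 21.5 and 48.2 CPM. Intact tissue against cold suspension had -0.67 ± 0.54 (adjusted p = 0.45), and 0.31 (adjusted p = 0.63) without the highest cold suspension. In nuclei it fell to 7.56, 5.34 and 6.29 CPM in male (-1.60 ± 0.25, adjusted p = 0.00048) and 1.32, 1.41 and 1.21 CPM in female mice (-4.42 ± 0.43, adjusted p = 1.4e-05, 21.4-fold lower). Hmox1 was called lower in 5 of 5 female classes and in proximal-tubule-like nuclei of male mice (-1.96), the only class with a test there. Of all gene and class tests, 80.1% in female and 72.7% in male mice were called, in either direction. Among nuclei, 1x2000g had 1.67 to 1.85 CPM (0.42, adjusted p = 0.081) and sucrose 1.53 to 2.37 CPM (0.50, adjusted p = 0.11), above the 3x500g libraries without a call.

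Nqo1 encodes a quinone reductase that is a standard readout of NRF2 activity. Distal-convoluted-tubule-like cells had the highest level in fresh cells, 111 ± 14.6 CPM in cold C57BL/6J and 90.1 ± 26.4 CPM in female libraries, against 38.5 ± 4.66 and 19.1 ± 2.61 CPM in proximal-tubule-like cells. Warm against cold dissociation gave no call: Nqo1 was at 36.0, 49.5 and 32.4 CPM in warm and 34.7, 32.9 and 27.5 CPM in cold fresh cells (0.48 ± 0.18, adjusted p = 0.10), and in bulk at 44.3 to 67.0 against 46.8 to 54.4 CPM (0.03, adjusted p = 0.95). Intact female tissue had more than cold suspensions, with 40.3, 45.0 and 40.1 CPM against 28.6, 34.3 and 31.5 CPM, without overlap (0.46 ± 0.08, adjusted p = 0.0035).

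Nqo1 was called lower in each cryopreservation comparison. After warm dissociation it fell to 10.6, 11.5 and 12.0 CPM (-2.15 ± 0.25, adjusted p = 0.00029), and it remained lower without proximal-tubule-like cells (-1.38, adjusted p = 0.003). After cold dissociation Nqo1 is listed at 0 in cryopreserved replicates 1 and 3 and at 12.0 CPM (28 UMIs) in replicate 2. No fold is given, since genes seen in fewer than 10 cells of a library appear as 0 in these tables. The call after cold dissociation was lost in DESeq2 (adjusted p = 0.19) and without proximal-tubule-like cells (adjusted p = 0.14). In female mice it went from 18.9, 19.8 and 21.3 CPM to 9.81, 12.7 and 13.6 CPM (-1.15 ± 0.14, adjusted p = 0.00017), and had -0.99 without proximal-tubule-like cells (adjusted p = 0.0017). Methanol fixation after cold dissociation gave 44.5, 37.8 and 36.4 CPM (0.47 ± 0.12, adjusted p = 0.021), a call lost in DESeq2 (adjusted p = 0.064) and without methanol-fixed replicate 1 (adjusted p = 0.063) or fresh replicate 2 (adjusted p = 0.071) or 3 (adjusted p = 0.075). After warm dissociation fixation gave 55.7, 65.3 and 39.4 CPM, called only with the replicate block (0.52, adjusted p = 0.018).

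In nuclei Nqo1 was lower by the same log2 fold change of -0.82 in male (14.8, 14.3 and 20.7 CPM, adjusted p = 0.005) and female mice (15.0, 17.0 and 14.2 CPM, adjusted p = 4.7e-05), against 29.2, 22.9 and 26.4 and 18.9, 19.8 and 21.3 CPM in cells. Distal-convoluted-tubule-like nuclei lay furthest below the cells, with -2.22 in male and -2.49 in female mice. Sucrose nuclei had 17.2, 19.2 and 21.6 CPM (0.32 ± 0.10 over 3x500g, adjusted p = 0.028). That call was lost without sucrose replicate 2 (adjusted p = 0.074) or 3 (adjusted p = 0.086) and without 3x500g replicate 1 (adjusted p = 0.053) or 3 (adjusted p = 0.094). The 1x2000g nuclei had 17.4 to 18.6 CPM (0.21, adjusted p = 0.061), and were called higher without proximal-tubule-like barcodes (0.37, adjusted p = 0.032).

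Gclc and Gclm encode the catalytic and the modifier subunit of glutamate-cysteine ligase, the rate-limiting enzyme of glutathione synthesis, and the 2 subunits had different places in the nephron. Gclm was highest in proximal-tubule-like cells, at 301 ± 40.6 CPM in cold fresh C57BL/6J and 404 ± 37.2 CPM in female cells, with the next class at 111 ± 60 CPM (principal-cell-like) in C57BL/6J mice. Gclc was highest in connecting-tubule-like (238 ± 54.4 CPM), intercalated-like (207 ± 30.9 CPM) and distal-convoluted-tubule-like cells (196 ± 86.4 CPM), which did not differ beyond their spread, and was 77.2 ± 13.1 CPM in proximal-tubule-like cells. Gclm was the sole member called between warm and cold fresh cells, at 311, 325 and 273 CPM against 250, 193 and 195 CPM (0.66 ± 0.13, adjusted p = 0.012). The call was lost without cold replicate 2 (adjusted p = 0.073) or 3 (adjusted p = 0.057), and without proximal-tubule-like cells the difference was 0.19 (adjusted p = 0.58). Proximal-tubule-like cells made up 70.4 to 73.2% of warm and 58.7 to 70.1% of cold fresh barcodes. In bulk RNA of the same suspensions Gclm had -0.14 (adjusted p = 0.33). Gclc was not called in fresh cells (-0.15, adjusted p = 0.62) or in bulk (0.10, adjusted p = 0.6).

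Of the members with a fold, Gclm fell most over all cells in each of the 3 cryopreservation comparisons. It went from 250, 193 and 195 to 47.5, 39.4 and 38.4 CPM after cold dissociation (5.78-fold lower, -2.53 ± 0.15, adjusted p = 2e-05) and from 311, 325 and 273 to 43.9, 44.8 and 28.1 CPM after warm dissociation (9.94-fold lower, -3.31 ± 0.18, adjusted p = 9.1e-06). In female mice it went from 238, 269 and 287 to 75.2, 91.9 and 95.2 CPM (-2.01 ± 0.12, adjusted p = 4.6e-06). Without proximal-tubule-like cells it was still lower, by -0.70 (adjusted p = 0.025), -1.01 (adjusted p = 0.011) and -0.70. Gclm then no longer fell most: Mt1 had -1.05 after cold dissociation, Nqo1 -1.38 after warm dissociation and Mt1 -1.48 in female mice. Remaining proximal-tubule-like cells of female mice had 266 ± 34.2 CPM against 404 ± 37.2 CPM in fresh ones (-0.93 ± 0.12, adjusted p = 7.8e-06, 28.7% of genes of this class called). Gclm was also lower in ascending-loop-like (-0.92), principal-cell-like (-0.85) and intercalated-like cells (-0.75). The proximal-tubule call held in all 6 fits without 1 library, and the intercalated one in 5 of 6. The ascending-loop call was lost in 3 of 6 fits, at a clustering resolution of 1 (-0.75, adjusted p = 0.07) and with doublets removed (-0.68, adjusted p = 0.11), and the principal-cell call in 5 of 6 fits and with doublets removed (-0.78, adjusted p = 0.09). In C57BL/6J mice it was lower in macrophage-like cells after cold (-1.39, adjusted p = 0.017) and in endothelial-like cells after warm dissociation (-1.10, adjusted p = 0.031). Of the genes tested in these classes, 15.9% and 7.64% were called. The macrophage call was lost in 3 of 6 fits without 1 library. The endothelial call was lost in 4 of 6, at a clustering resolution of 1 (-0.72, adjusted p = 0.29) and with doublets removed (-0.91, adjusted p = 0.066).

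Over all cells Gclc followed cryopreservation less than Gclm did. After cold dissociation it fell from 67.0, 74.3 and 87.1 to 25.4, 47.1 and 27.7 CPM (-1.33 ± 0.24, adjusted p = 0.0026), and after warm dissociation it was at 63.4, 66.5 and 72.4 CPM against 62.3, 74.9 and 48.4 CPM (-0.23, adjusted p = 0.33). In female mice the levels overlapped, 96.6, 92.7 and 98.1 CPM against 92.7, 93.7 and 92.1 CPM, and the called difference of -0.36 ± 0.07 (adjusted p = 0.0024) is one relative to the other genes, which the scaling by total counts does not show. Without proximal-tubule-like cells these values were -0.99 (adjusted p = 0.02), -0.23 (adjusted p = 0.54) and -0.39. Gclm had -0.70, -1.01 and -0.70 there, so that Gclc lay below Gclm after cold dissociation. Whether the subunits differ from each other was not tested. Principal-cell-like cells of female mice had the only class call (-0.84, adjusted p = 0.038), which was lost in 5 of 6 fits without 1 library.

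Over all cells Gclm was higher after methanol fixation of cold-dissociated suspensions. It rose to 307, 279 and 268 CPM (0.58 ± 0.12, adjusted p = 0.0076), while Gclc was at 49.3, 46.0 and 56.9 CPM, below all fresh libraries but not called (-0.42, adjusted p = 0.073). It was called with genes listed at 0 in any library left out (-0.44, adjusted p = 0.032). With the replicate block Gclc was called after both cold (-0.43, adjusted p = 0.0091) and warm dissociation (-0.56, adjusted p = 0.039), as was Gclm after warm dissociation (0.26, adjusted p = 0.023). Within classes of cold-dissociated cells (20.6% of tests called) Gclc fell in intercalated-like (-1.04, adjusted p = 0.021), connecting-tubule-like (-1.04, adjusted p = 0.033) and proximal-tubule-like cells (-0.61, adjusted p = 0.015), and Gclm rose in endothelial-like (0.93, adjusted p = 0.023) and macrophage-like cells (1.00, adjusted p = 0.038). Each of these 5 calls was lost in 3 or 4 of 6 fits without 1 library, and that of Gclm in endothelial-like cells also at a clustering resolution of 1 (0.88, adjusted p = 0.056). In proximal-tubule-like cells Gclm was at 356 ± 30.2 CPM fixed and 301 ± 40.6 CPM fresh, and was not called. These cells made up 68.6 to 74.5% of cold fixed and 58.7 to 70.1% of cold fresh barcodes. The parts of this share and of ambient RNA were not tested. Without the replicate block Gclc (33.3 to 53.9 CPM, -0.50, adjusted p = 0.17) and Gclm (317 to 369 CPM, 0.27, adjusted p = 0.13) were not called after warm dissociation. After warm dissociation Gclc fell in distal-convoluted-tubule-like cells (-2.13, adjusted p = 0.012), a call lost without methanol-fixed replicate 2. Intact female tissue had more of both than cold suspensions, 259, 331 and 295 against 212, 218 and 205 CPM for Gclc (0.53 ± 0.08, adjusted p = 0.0012) and 379, 368 and 374 against 238, 263 and 281 CPM for Gclm (0.57 ± 0.07, adjusted p = 0.00032), without overlap.

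Gclc was the one member with a higher CPM in nuclei than in cells. Nuclei libraries counted intronic reads too, cell libraries did not, and introns made up 91.4% of the span of its principal transcript. The part of intronic reads was not tested. The median log2 fold change over all genes was 0.84 in male and 0.10 in female mice, so the male Gclc value below lies under that of the median gene. In female mice Gclc was at 457, 190 and 189 CPM in 3x500g nuclei against 92.7, 93.7 and 92.1 CPM in cells (1.16 ± 0.35, adjusted p = 0.013). In male mice it was at 153, 201 and 271 against 112, 111 and 172 CPM, with overlap (0.51 ± 0.23, adjusted p = 0.076), and it was called without nuclei replicate 1 (0.68, adjusted p = 0.03) or cells replicate 3 (0.66, adjusted p = 0.036), and with genes listed at 0 in any library left out (0.51, adjusted p = 0.038). Gclc was called higher in 8 of 10 female and 3 of 6 male classes, where 80.1% and 72.7% of all gene and class tests were called in either direction. Of these, the endothelial call in female mice was lost with doublets removed (0.50, adjusted p = 0.09) and the mesangial one at a clustering resolution of 1 (0.59, adjusted p = 0.14), and the proximal-tubule difference of 1.34 had a lowest value of 0.50 with 1 library left out. Of the 8 female calls, 5 were lost in at least 1 fit without 1 library: endothelial in 4 of 6 (lowest value 0.40), thin limb in 3, macrophage and mesangial in 2 each and proximal tubule in 1. Each of the 3 male calls was lost in 2 or 3 of 6 such fits. Gclm was lower in all 10 female classes tested, from -1.99 in thin-limb-like to -0.70 in endothelial-like nuclei (the macrophage call was lost with doublets removed, -0.78, adjusted p = 0.075), and over all nuclei by -1.44 ± 0.14 (adjusted p = 1.5e-05). In male mice Gclm was lower over all nuclei (-0.52 ± 0.11, adjusted p = 0.0021) and in 2 classes (proximal tubule, and intercalated, which was lost with doublets removed, -0.71, adjusted p = 0.056), and higher in endothelial-like nuclei (0.88, adjusted p = 0.042, lost in 2 of 6 fits without 1 library). Without proximal-tubule-like barcodes the male difference was -0.12 (adjusted p = 0.47). Over all nuclei Gclm was not called between protocols, at 144 to 172 CPM in 1x2000g (0.20, adjusted p = 0.25), 123 to 146 CPM in sucrose (0.02, adjusted p = 0.9) and 110 to 165 CPM in 3x500g nuclei. Within classes it was higher in 1x2000g nuclei in 4 of 10 (15.6% of tests called). The calls in ascending-loop-like (0.60, adjusted p = 0.0045), endothelial-like (0.75, adjusted p = 0.00068) and thin-limb-like nuclei (1.52, adjusted p = 0.0037) held in all 6 fits without 1 library, and that in distal-convoluted-tubule-like nuclei (0.58, adjusted p = 0.029) was lost in 4 of 6 and with doublets removed (0.54, adjusted p = 0.053). Sucrose nuclei had more Gclm in 2 of 10 classes (20.7% of tests called), in ascending-loop-like nuclei (0.47, adjusted p = 0.0075) in all 6 such fits and in endothelial-like nuclei (0.50, adjusted p = 0.036) in 1 of 6.

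**Figure D4:**
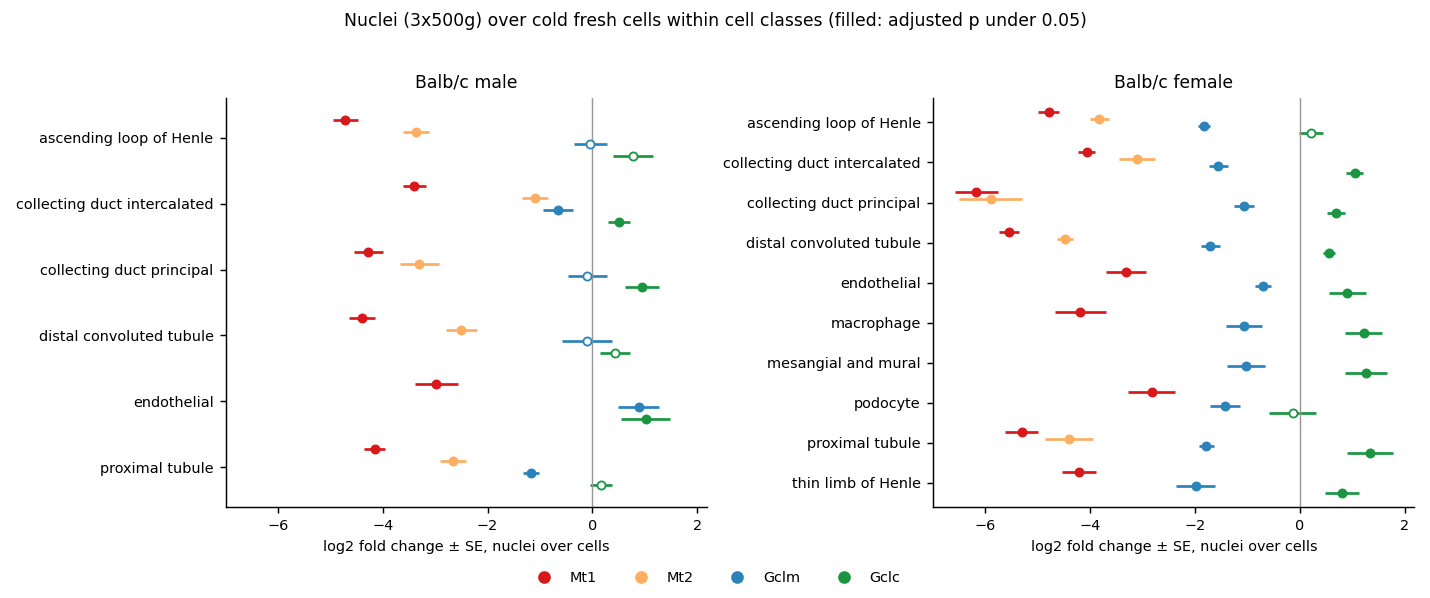
Log2 fold change between 3x500g nuclei and fresh cells (x axis, bars of 1 standard error) of Mt1, Mt2, Gclm and Gclc in each cell class tested (y axis), in male and female Balb/c mice. Mt1 is lower in all classes shown, from -6.17 to -2.82, and Gclc is higher in most.

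Gclc levels differed between nuclei libraries of the same protocol. In each female protocol 1 of 3 libraries stood apart: 3x500g replicate 1 (457 CPM, others 190 and 189), 1x2000g replicate 1 (408, others 177 and 178) and sucrose replicate 2 (580, others 215 and 191). Proximal-tubule-like nuclei had 623, 555 and 862 CPM in these 3 libraries and 160 to 217 CPM in the other 6. The same 3 were also above the other 6 in intercalated-like (797, 794 and 663 against 494 to 590 CPM), endothelial-like (178, 114 and 182 against 62.1 to 83.02 CPM), fibroblast-like (104, 70.1 and 91.8 against 44.3 to 62.6 CPM) and, narrowly, podocyte-like nuclei (51.1 to 277 against 15.6 to 50.9 CPM). In distal-convoluted-tubule-like nuclei they were at 428, 363 and 362 CPM, and the other 6 at 376 to 458 CPM. The 3 libraries also overlapped the other 6 in ascending-loop-like (86.6 to 138 against 71.9 to 114 CPM), principal-cell-like (152 to 229 against 158 to 219 CPM), thin-limb-like (118 to 308 against 122 to 197 CPM), macrophage-like (89.1 to 193 against 68.3 to 151 CPM) and mesangial-like nuclei (41.9 to 82.0 against 45.2 to 92.0 CPM). Gclc was not called in 1x2000g (-0.15, adjusted p = 0.83) or sucrose (0.22, adjusted p = 0.75) against 3x500g nuclei. Fresh cells of the same series were at 92.1 to 93.7 CPM with no library apart. GEO's labels do not tie nuclei libraries of different protocols to the same mouse, so whether the 3 libraries come from 1 mouse was not tested. Without proximal-tubule-like barcodes the difference between female nuclei and cells was 0.67 (adjusted p = 0.002).

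Txnrd1 and Srxn1 belong to the thioredoxin branch: Txnrd1 encodes the cytosolic thioredoxin reductase, and Srxn1 encodes sulfiredoxin, which restores overoxidized peroxiredoxins. In cold fresh C57BL/6J mice Txnrd1 was at 76.8 ± 4.99 CPM in proximal-tubule-like, 74.3 ± 16.1 CPM in intercalated-like, 56.5 ± 12.2 CPM in connecting-tubule-like and 42.6 ± 19.2 CPM in ascending-loop-like cells. In female fresh cells it ran from 104 ± 11.2 CPM in connecting-tubule-like to 17.3 ± 3.41 CPM in macrophage-like cells, with 51.5 ± 13.0 CPM in distal-convoluted-tubule-like and 42.7 ± 18.1 CPM in thin-limb-like cells, and connecting-tubule-like cells lay above all 3 beyond the spread. In cold fresh C57BL/6J mice Srxn1 was at 59.4 ± 16.2 CPM in intercalated-like, 49.9 ± 11.7 CPM in distal-convoluted-tubule-like and 41.8 ± 11.9 CPM in connecting-tubule-like cells, which did not differ beyond their spread, and 27.6 ± 3.77 CPM in proximal-tubule-like cells. In female fresh cells principal-cell-like (72.3 ± 24.0 CPM) and intercalated-like cells (66.7 ± 8.64 CPM) likewise overlapped. Neither was called between warm and cold dissociation, with Txnrd1 at 58.5, 59.8 and 56.3 against 64.0, 61.2 and 67.7 CPM and Srxn1 at 33.2, 23.7 and 26.6 against 26.2, 25.7 and 26.4 CPM in fresh cells. In bulk RNA Txnrd1 had -0.03 (adjusted p = 0.9) and Srxn1 -0.01 (adjusted p = 0.95).

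Both fell with cryopreservation. Txnrd1 went to 26.7, 28.3 and 27.1 CPM after cold (-1.40 ± 0.12, adjusted p = 8.2e-05) and 41.5, 36.5 and 47.9 CPM after warm dissociation (-0.81 ± 0.12, adjusted p = 0.00096), and from 76.0, 68.2 and 76.8 to 54.8, 52.3 and 54.7 CPM in female mice (-0.86 ± 0.08, adjusted p = 3.4e-05). Srxn1 went to 13.0, 12.4 and 14.5 CPM (-1.15 ± 0.15, adjusted p = 0.00059) and 23.6, 19.2 and 16.2 CPM (-0.84 ± 0.19, adjusted p = 0.0068). In female mice Srxn1 had 26.7, 34.7 and 34.0 against 35.8, 34.9 and 37.7 CPM, below all fresh libraries (-0.60 ± 0.11, adjusted p = 0.0016). Without proximal-tubule-like cells, Txnrd1 had -0.58 (adjusted p = 0.037) after cold, -0.11 (adjusted p = 0.69) after warm dissociation and -0.35 in female mice, and Srxn1 had -0.71 (adjusted p = 0.082), -0.47 (adjusted p = 0.16) and -0.62. The female values were called. Txnrd1 was lower in the remaining proximal-tubule-like cells of female mice (-0.55, adjusted p = 0.026, 28.7% of genes of this class called). That call was lost at a clustering resolution of 1 (-0.16, adjusted p = 0.69) and in 4 of 6 fits without 1 library. After methanol fixation neither gene was called, and Srxn1 after cold dissociation, at 32.3, 26.8 and 36.4 CPM (0.46, adjusted p = 0.057), was called with the replicate block (0.45, adjusted p = 0.027) and without proximal-tubule-like cells (0.89, adjusted p = 0.032). Txnrd1 was at 59.2 to 62.0 CPM after cold (0.08, adjusted p = 0.61) and 51.5 to 55.4 CPM after warm dissociation (-0.05, adjusted p = 0.78), and Srxn1 at 26.4 to 30.8 CPM after warm dissociation (0.09, adjusted p = 0.77).

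Nuclei had less of both. Srxn1 was at 10.0, 11.1 and 12.1 CPM in male nuclei against 37.1, 24.9 and 22.7 CPM in cells (-1.52 ± 0.22, adjusted p = 0.00028) and at 5.89, 6.48 and 5.55 against 35.8, 34.9 and 37.7 CPM in female mice (8.21-fold lower, -3.04 ± 0.09, adjusted p = 7e-09). Txnrd1 was at 50.7, 48.3 and 55.8 against 54.1, 56.3 and 59.4 CPM in male (-0.31 ± 0.11, adjusted p = 0.027) and at 62.8, 63.9 and 67.6 against 76.0, 68.2 and 76.8 CPM in female mice (-0.62 ± 0.07, adjusted p = 3.5e-05). The male call was lost without nuclei replicate 2 (adjusted p = 0.067) or cells replicate 2 (adjusted p = 0.096). Txnrd1 was lower in 1x2000g (49.7, 49.5 and 48.9 CPM, -0.41 ± 0.06, adjusted p = 0.0033) and sucrose nuclei (48.7, 55.2 and 51.8 CPM, -0.33 ± 0.07, adjusted p = 0.0083) than in 3x500g nuclei. Without proximal-tubule-like barcodes the sucrose difference was -0.17 and not called (adjusted p = 0.098), and the 1x2000g difference was -0.32 (adjusted p = 0.015). Srxn1 was not called, at 6.64 to 7.17 CPM in 1x2000g (0.21, adjusted p = 0.12), 5.09 to 6.17 CPM in sucrose (-0.08, adjusted p = 0.58) and 5.55 to 6.48 CPM in 3x500g nuclei.

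Intact female tissue had slightly more Txnrd1 than cold suspensions, 207, 201 and 213 against 183, 185 and 198 CPM (0.18 ± 0.05, adjusted p = 0.037). This call was lost without intact replicate 1 (adjusted p = 0.089), 2 (adjusted p = 0.055) or 3 (adjusted p = 0.072) or cold replicate 1 (adjusted p = 0.13) or 2 (adjusted p = 0.15). Srxn1 had 85.8, 82.9 and 96.8 against 100.1, 98.4 and 109 CPM, without overlap and not called (-0.16 ± 0.06, adjusted p = 0.11), and was called without intact replicate 3 (-0.22, adjusted p = 0.039).

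Whether storage acted differently after warm and after cold dissociation was tested with an interaction term over the 18 C57BL/6J 10x libraries. The change with cryopreservation was more positive after warm than after cold dissociation for Mt1 (difference of log2 fold changes 1.46 ± 0.29, adjusted p = 0.0076), Gclc (1.12 ± 0.31, adjusted p = 0.038) and Txnrd1 (0.61 ± 0.16, adjusted p = 0.031), and more negative for Gclm (-0.76 ± 0.23, adjusted p = 0.049). The 4 of 8 called compare with 6.87% of all genes. Mt2 had 1.01 ± 0.32 (adjusted p = 0.065), and Hmox1, Nqo1 and Srxn1 had adjusted p of 0.57 or more. With a block by replicate number Mt2 was called (1.09, adjusted p = 0.028). That block also joins warm and cold suspensions, which share only a number, so it does not pair aliquots alone. None of the 4 was called without proximal-tubule-like cells, where Mt1 had 0.94 (adjusted p = 0.11). For methanol 0 of 8 were called, with 0.264% of all genes called.

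Among 32 other NRF2 targets (enzymes of glutathione, NADPH and ferritin metabolism), most were lower after cryopreservation and in nuclei. Warm against cold fresh cells had 10 of 31 higher and 1 lower, where 14.9% of all genes were called. The median log2 fold change was 0.31 beside -0.03 over all genes. Osgin1 (2.08), the glutathione synthetase gene Gss (0.88) and the peroxiredoxin gene Prdx6 (0.72) led, and Ephx1 was lower (-0.91). Without proximal-tubule-like cells 3 of 30 were higher and 0 lower (median 0.11 beside -0.004, 6.89% of genes called). In bulk RNA 2 of 29 were higher, Osgin1 (1.11) and Abcc1 (0.60), and Idh1 was lower (-0.30), with a median of -0.07 beside -0.01 (8.68% of all genes called). Cryopreservation had 22 of 31 lower and 3 higher after cold dissociation (median -0.82 beside -0.13, with 50.7% of all genes called), 23 of 31 lower and 2 higher after warm dissociation (-1.34 beside -0.15, 59.8%) and 24 of 30 lower and 3 higher in female mice (-0.84 beside 0.02, 58.0%). The share of proximal-tubule-like barcodes fell in the same libraries. Without those barcodes 6 of 30 were lower and 2 higher after cold (0.05 beside -0.05, 20.7%), 11 of 29 lower and 2 higher after warm dissociation (-0.23 beside -0.04, 17.0%) and 16 of 30 lower and 1 higher in female mice (-0.42 beside 0.03, 30.0%), so that the median after cold dissociation changed sign. The epoxide hydrolase gene Ephx1 was higher in all 3 (0.84, 1.57 and 0.85), and the glutathione transferase gene Gsta2 was at -5.68 after warm dissociation and -3.77 in female mice.

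Methanol fixation had 12 of 31 of these targets higher and 0 lower after cold (median 0.36 beside -0.08) and 6 of 30 higher and 2 lower after warm dissociation (0.18 beside -0.20), led in both by Gstp1 (0.94 and 1.07) with Prdx1 (0.93 and 0.80). Intact female tissue had 8 of 32 higher, led by Cbr1 (1.24), Gss (0.90) and Ugdh (0.86), and 4 lower, among them Ftl1 (-0.32). The median was -0.03 beside -0.003 over all genes, of which 20% were called. In nuclei 24 of 31 were lower and 5 higher in male mice, and 26 of 31 lower and 4 higher in female mice. Of all genes 81.3% and 84.8% were called there, in either direction. The medians were -2.06 and -2.41 beside 0.84 and 0.10 over all genes. Gstp1 fell by 6.03 and 5.93 on the log2 scale, and Osgin1 was higher in both (2.36 and 1.04). The 1x2000g nuclei had 12 of 32 higher and 2 lower than 3x500g nuclei, led by Prdx1 (0.99), Txn1 (0.96) and Fth1 (0.94), and sucrose nuclei 13 higher and 3 lower, led by Ftl1 (0.95). These shares are near the 34.9% and 45.3% of all genes called, and the medians were 0.34 and 0.20 beside 0.03 over all genes in each.

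Of 9 genes for regulators of NRF2, the small MAF gene Maff rose most. It was higher by 2.62 ± 0.26 in bulk warm suspensions (adjusted p = 7.1e-05), where Mafk was also higher (0.55) and 0 were lower, beside 8.68% of all genes called. Maff was higher by 3.43 in cells cryopreserved after warm dissociation, where 4 were higher, among them Mafk (1.63) and Nfe2l1 (1.41), and 2 lower. These 6 of 9 are near the 59.8% of all genes called there, and the list had a median of 0.41 beside -0.15 over all genes. After cold dissociation and cryopreservation 3 were higher, among them Nfe2l2 itself (0.63), and 3 lower, led by Cul3 (-1.19), a subunit of the ligase that degrades NRF2, beside 50.7% of all genes called (median 0.28 beside -0.13). Without proximal-tubule-like cells 0 of 9 were higher and 1 lower after cold dissociation (20.7% of genes called). After warm dissociation 2 of 9 were then higher and 1 lower (17.0%), and 0 of 9 were called in female mice (30.0%). Warm against cold fresh cells had Cul3 alone (-0.37, 14.9% of all genes called), and without proximal-tubule-like cells 1 of 9 higher and 0 lower (6.89%). Methanol fixation of cold-dissociated cells had Bach1 (-0.85) and Nfe2l1 (-0.84) lower and Rbx1 higher (0.48, beside 27.9% of all genes called). After warm dissociation Mafg (-1.06) and Nfe2l1 (-0.88) were lower and Rbx1 higher (0.37, beside 17.3%). Female mice had 2 of 9 higher and 3 lower after cryopreservation (median -0.03 beside 0.02 over all genes), near the 58.0% of all genes called. Nuclei against cells had 2 of 8 higher and 3 lower in male (0.06 beside 0.84) and 2 of 9 higher and 4 lower in female mice (-0.53 beside 0.10), with Mafg higher (1.96 and 0.87) and Rbx1 lower (-2.94 and -3.63) in both, shares below the 81.3% and 84.8% of all genes called. The 1x2000g nuclei had 0 higher and 1 lower (Mafg, -0.23), sucrose nuclei 2 higher and 2 lower, and intact tissue 0 of 9 in either direction. The shares of all genes called there were 34.9%, 45.3% and 20%.

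In the metal response list (16 genes for MTF1, other metallothioneins and metal transporters) few genes rose with dissociation or storage. Bulk warm against cold had 1 of 11 higher, the transferrin receptor gene Tfrc (0.52), and fresh 10x cells 1 of 11 lower, Slc39a10 (-0.63), beside 8.68% and 14.9% of all genes called. Cryopreservation had 0 higher and 5 of 9 lower after cold dissociation, led by the iron and copper transporter genes Slc11a2 (-2.15) and Slc31a1 (-2.13), and 0 higher and 6 of 11 lower after warm dissociation. These shares are near the 50.7% and 59.8% of all genes called, and the medians were -1.48 and -0.88 beside -0.13 and -0.15 over all genes. Without proximal-tubule-like cells 0 of 8 were higher and 2 lower after cold dissociation (median -0.46 beside -0.05, 20.7% of genes called). After warm dissociation 0 of 9 were then higher and 2 lower (-0.25 beside -0.04, 17.0%), and in female mice 1 of 10 was higher and 3 lower (-0.01 beside 0.03, 30.0%). Over all cells, female mice had 1 of 10 higher and 5 lower (-0.38 beside 0.02, near the 58.0% of all genes called), led by the iron exporter gene Slc40a1 (-1.44). Methanol fixation had 0 of 11 higher and 1 lower after cold (Tfrc, -0.86) and 0 in either direction after warm dissociation, beside 27.9% and 17.3% of all genes called. Nuclei against cells had 6 of 11 higher and 4 lower in male (0.58 beside 0.84) and 5 of 11 higher and 4 lower in female mice (0.00 beside 0.10), among them Slc39a14 higher (2.85 and 2.49) and Slc30a1 lower (-1.09 and -1.43), beside 81.3% and 84.8% of all genes called. The 1x2000g nuclei had 3 of 13 higher and 2 lower (median 0.04 beside 0.03) and sucrose nuclei 3 of 12 higher and 3 lower (-0.13 beside 0.03), near the 34.9% and 45.3% of all genes called. Intact female tissue had 5 of 14 higher, led by the zinc transporter gene Slc39a8 (1.94), and 0 lower (median 0.14 beside -0.003, 20% of all genes called).

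Of 8 glucocorticoid-induced genes, 4 were higher and 0 lower in bulk warm suspensions, among them the clock gene Per1 (1.95), Ddit4 (1.37) and Sgk1 (0.42). The median was 0.37 beside -0.01 over all genes, of which 8.68% were called. In fresh 10x cells Klf9 alone was called over all cells (0.80, beside 14.9% of all genes called). Without proximal-tubule-like cells 2 of 7 were higher and 0 lower (median 0.44 beside -0.004, 6.89% of genes called). After warm dissociation and cryopreservation 4 of 7 were higher, led by Per1 (2.20) and Sgk1 (1.74), and 2 lower, led by Errfi1 (-2.48), with a median of 1.32 beside -0.15 and 59.8% of all genes called. After cold dissociation and cryopreservation 2 of 7 were higher (Sgk1 1.72, Tsc22d3 1.54) and 2 lower (Errfi1 -3.12, Fkbp5 -1.05), with 0.54 beside -0.13 and 50.7%. Female mice had 3 of 8 higher and 2 lower after cryopreservation, with Sgk1 (1.19) higher and Errfi1 (-2.28) lower, 0.56 beside 0.02 and 58.0%. The cold and female shares are near those of all genes. Without proximal-tubule-like cells 4 of 7 were higher and 0 lower after warm dissociation (median 0.63 beside -0.04, 17.0% of genes called). After cold dissociation 2 of 7 were then higher and 0 lower (0.42 beside -0.05, 20.7%), and in female mice 0 of 8 were higher and 1 lower (0.09 beside 0.03, 30.0%). Methanol fixation had 0 of 7 in either direction after cold and Klf9 alone after warm dissociation (-0.78), beside 27.9% and 17.3% of all genes called. Nuclei against cells had 3 of 8 higher and 3 lower in male and 4 of 8 higher and 1 lower in female mice, with Fkbp5 higher (2.77 and 2.19) and Ddit4 lower (-0.46 and -2.37) in both. These shares lie below the 81.3% and 84.8% of all genes called, and the medians were 0.20 and 0.68 beside 0.84 and 0.10 over all genes. Sucrose nuclei had 0 higher and 2 of 8 lower, and 1x2000g nuclei and intact tissue 0 of 8 in either direction, beside 45.3%, 34.9% and 20% of all genes called. Several of these genes are also known as immediate responders to stress.

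The genes whose levels were most like a member's over the 18 C57BL/6J 10x libraries were found by Pearson's r on log2 CPM, as a description, among 8257 genes with a mean of at least 10 CPM. These libraries share suspensions and differ in the share of proximal-tubule-like cells. Mt1 and Mt2 were each other's nearest gene (r = 0.94), followed by Wfdc2 (0.88) and Pde12 (0.86) for Mt1 and Bhlhe40 (0.90) and Nedd4l (0.89) for Mt2. Hmox1 had 3 chaperone genes nearest, Hsp90aa1 (0.86), Bag3 (0.83) and Hspb1 (0.83). Gclm had Qdpr, Msra and Calml4 (0.99 each) and Txnrd1 had Slc25a16, Dynll2 and Slc7a8 (0.97 each). None is given for Nqo1, which 2 of the 18 libraries list at 0. Srxn1 had Mthfd1 (0.95) and Ndufs1 (0.94), and Gclc had the proton pump gene Atp6v1a (0.91), Lrp6 (0.89) and Cpeb3 (0.89).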

How the data were processed

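The 8 genes, the 4 pathway lists and the tests were chosen with earlier results of these data known. For the 10x libraries the authors aligned reads to mm10 with Cell Ranger 2.1.1, ran EmptyDrops to keep barcodes of cells, removed sparse genes and poor barcodes, and deposited raw UMI counts. Cell libraries count exonic reads alone, nuclei libraries also intronic ones. For the bulk libraries the authors trimmed reads with Trim Galore, aligned them to GRCm38 with STAR 2.6.1a and deposited read counts per gene from featureCounts. Whether counting used strand or left out duplicates is not given in the sources used here, and PCR duplicates may remain. In the 10x tables a gene seen in fewer than 10 cells of a library mostly appears as 0, so a listed 0 is not a measured absence. Such genes stayed in the main fits where the tables of all libraries compared list them.

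Counts were summed per library and tested between the 2 groups of each comparison with edgeR 4.0.16 (glmQLFit and glmQLFTest, TMM normalization, filterByExpr, Benjamini-Hochberg over all genes tested, or all genes of a class) in R 4.3.3. The 12 comparisons used 3 libraries a group, and p-values measure the spread between these libraries. Barcodes (175959) were clustered in 5 sets without the member, list and stress genes, with leidenalg 0.10.2 at resolution 2 on 2000 variable genes, 30 principal components and 20 neighbors, in Python 3.11.15. Of 196 clusters, 22 (5.13% of barcodes) stayed unnamed. Named clusters were summed per library and class where at least 10 cells and at least 2 libraries per group were present. Doublets (8992 barcodes, 5.11%) were marked against simulated pairs and kept in the main sums. No 2 libraries shared more than 2.046% of the barcodes of the smaller. The edgeR test of the 12 whole-library comparisons was first run on simulated counts with known changes. The class sums, the interaction, the replicate block and the other alternatives were not run on such counts.

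The text names all 8 members in every comparison, for each pathway list the counts per direction and some of the up to 3 called genes per direction with the largest log2 fold change, and for each member except Nqo1 the 3 genes most like it over the 18 C57BL/6J 10x libraries, by Pearson's r of log2(CPM + 1), of which 1 is not reported here. Promoter sequences are from RefSeq, and exon lengths and gene spans from GENCODE annotation of GRCm38.

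Barcodes in the headers of the deposited C57BL/6J tables carry the name of the suspension, which pairs fresh, cryopreserved and methanol-fixed aliquots. Warm and cold suspensions share a number only (correlations of -0.12 to 0.19). Same-numbered libraries deviated from their group means with correlations of 0.31 to 0.44 (methanol, cold), 0.10 to 0.29 (methanol, warm), 0.05 to 0.11 (cryopreserved, cold) and -0.07 to -0.004 (cryopreserved, warm). The fit with this block was added after the data were seen, as were the fit without genes listed at 0 in any library and the lengths of principal transcripts (APPRIS principal, best support level, then longest). The other alternatives were DESeq2 1.42.0, RLE size factors, no filter on low counts, the exact test of edgeR, mitochondrial genes left out, sums without proximal-tubule-like cells, a clustering resolution of 1, doublets removed and each library left out in turn.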

Additional observations from a re-analysis of the deposited data

Results flagged for a closer look

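For 4 of the 8 genes the change with cryopreservation differed between warm-dissociated and cold-dissociated C57BL/6J cells, by an interaction test in edgeR over 18 libraries with adjustment over all genes (6.87% of genes called). The difference, warm minus cold, was 1.46 for Mt1, 1.12 for Gclc, 0.61 for Txnrd1 and -0.76 for Gclm on the log2 scale. Mt1 was called in 16 of 18 fits that each left out 1 library (1.27 to 1.69) and lost in the fits without warm fresh replicate 1 or cold fresh replicate 3. Txnrd1 was called in 10 of these fits (0.51 to 0.70), Gclc in 8 (0.92 to 1.49) and Gclm in 3 (-0.90 to -0.55). Without proximal-tubule-like cells the values were 0.94 for Mt1 (adjusted p = 0.11), 0.74 for Gclc (adjusted p = 0.35), 0.45 for Txnrd1 (adjusted p = 0.40) and -0.33 for Gclm (adjusted p = 0.74), and none was called. Loop of Henle markers also moved differently, from 2283 to 2601 CPM in fresh to 489 to 965 CPM in cryopreserved cells after cold dissociation and from 2887 to 4530 CPM to 3924 to 5400 CPM after warm dissociation. The part of this shift in the differences was not tested.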

How the results depend on the processing

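Without proximal-tubule-like cells, cryopreservation after warm dissociation called 3 of 8 genes in place of 7, and Mt1 (-0.083) and Mt2 (-0.122) lay within 1 SE of 0. The same sums moved the count of genes called to 1 from 0 (methanol, warm), to 3 from 1 (1x2000g nuclei) and to 0 from 4 (interaction). The cause was not tested. DESeq2 called 1 in place of 2 (methanol, cold), 2 in place of 1 (1x2000g nuclei) and 4 in place of 5 (cryopreservation, cold, where Nqo1 lost its call). The replicate block, added after the data were seen, called 4 in place of 2 (methanol, cold) and 4 in place of 0 (methanol, warm). At a clustering resolution of 1, warm against cold class sums had 1 call in place of 3. RLE size factors and no filter on low counts left all 96 single values of whole libraries on their side of the threshold. In the interaction, RLE size factors called Mt2 (1.08, adjusted p = 0.042) and not Gclm (-0.71, adjusted p = 0.06). With genes listed at 0 in any library left out, added after the data were seen, Gclc was called in methanol, cold (-0.44) and in male nuclei (0.51).

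With 1 library left out, the count of the 8 genes called was 2 to 2 (bulk warm against cold), 3 to 4 (intact tissue), 0 to 1 (fresh warm against cold), 5 to 6 and 6 to 7 (cryopreservation, cold and warm), 7 to 7 (cryopreservation, female), 1 to 3 and 0 to 0 (methanol, cold and warm), 6 to 8 and 8 to 8 (nuclei, male and female), 1 to 2 (1x2000g), 1 to 2 (sucrose) and 0 to 5 (interaction). In class sums it was 0 to 2, 0 to 4, 4 to 7, 5 to 7, 2 to 10, 1 to 3, 20 to 25, 44 to 53, 7 to 11 and 4 to 7, in the same order from fresh warm against cold to sucrose, and 77 of 130 class calls were kept in every such fit.

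Over all genes, calls moved by more than 1.5 times in bulk warm against cold (1224, with 1912 unfiltered and 776 without warm replicate 3), in fresh warm against cold (1801, with 771 and 810 without warm replicates 1 and 3, 444 and 754 without cold replicates 2 and 3, and 741 without proximal-tubule-like cells), and in methanol, cold (3321, with 1706 and 2022 without fresh replicates 2 and 3) and warm (1873, with 1202 and 3448 without methanol replicates 1 and 2, and 728, 766 and 638 without fresh replicates 1 to 3). Without proximal-tubule-like cells they fell from 5780 to 2226, 6441 to 1682 and 6932 to 3576 (cryopreservation, cold, warm and female). In 1x2000g nuclei (6082) they were 3550 without 1x2000g replicate 3 and 3886 without 3x500g replicate 3. After cold dissociation and cryopreservation 2 of 3 libraries list Nqo1 at 0, so its size of change is not known.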
